A study of Mus musculus with 16 samples.

Results

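The 8 hormone receptor genes Fshr, Lhcgr, Amhr2, Esr1, Esr2, Pgr, Nr3c1 and Nr3c2 were examined, out of 21938 protein-coding genes of the GENCODE M21 annotation (build GRCm38). They were chosen by name. The gene body, from the annotated start to the annotated end, and the window of 2 kb on either side of the first annotated transcription start were measured for each gene. The data were CpG methylation calls from 16 post-bisulphite adapter tagging (PBAT) libraries, a whole-genome bisulphite method for small amounts of DNA, each made from a pool of mouse metaphase II (MII) oocytes from F1 (C57BL/6J x CBA/Ca) females. The IFC group (n = 4) held oocytes from preantral follicles of prepubertal females that were grown and matured in vitro with recombinant FSH, then recombinant hCG and EGF, and carried a labelled age of 23 days. Per the study the follicles were taken from younger females and then cultured, so the labelled age is not that of the donors. The SO group (n = 5) came from prepubertal females of 23 days superovulated with eCG and hCG, and the SOA group (n = 4) from adults of 10 weeks superovulated with the same hormones. The IV group (n = 3) came from adults of 10 weeks that ovulated naturally after exposure to male pheromones, with no hormone given. Adult females received a higher hormone dose than prepubertal ones, so that age and dose cannot be told apart between SO and SOA, and culture and hormone exposure cannot be told apart in IFC.

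These genes encode receptors for gonadotropins, for steroids, several of which the ovary makes in response to gonadotropins, and for a peptide hormone of the granulosa cells. Fshr and Lhcgr encode the G protein-coupled receptors for follicle-stimulating hormone and for luteinising hormone and chorionic gonadotropin, which in the ovary are known mainly from granulosa and theca cells. Amhr2 encodes the receptor for anti-Müllerian hormone, and Esr1, Esr2, Pgr, Nr3c1 and Nr3c2 encode the nuclear receptors for oestrogens, progesterone, glucocorticoids and mineralocorticoids. In the growing oocyte DNA methylation is laid down mainly over transcribed gene bodies, so that the methylome is divided into highly methylated and poorly methylated domains, while most CpG-rich starts stay unmethylated.

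The promoters of 5 transcripts are shown: those of both gonadotropin receptor genes, that of Esr2, with as many CpGs as Lhcgr, and a pair from Esr1 that differed in methylation. Each runs from 250 bases before to 50 bases after a RefSeq start (GRCm38.p6), 5′ to 3′ on the strand of the gene, with every CpG in capitals.

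Fshr, chr17:89200626-89200925, minus strand: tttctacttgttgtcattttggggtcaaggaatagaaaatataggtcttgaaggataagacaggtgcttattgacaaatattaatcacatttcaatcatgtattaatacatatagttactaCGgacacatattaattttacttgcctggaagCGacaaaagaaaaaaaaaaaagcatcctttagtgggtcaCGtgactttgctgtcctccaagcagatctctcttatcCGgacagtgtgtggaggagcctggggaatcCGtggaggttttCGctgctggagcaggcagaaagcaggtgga
Lhcgr, chr17:88791965-88792264, minus strand: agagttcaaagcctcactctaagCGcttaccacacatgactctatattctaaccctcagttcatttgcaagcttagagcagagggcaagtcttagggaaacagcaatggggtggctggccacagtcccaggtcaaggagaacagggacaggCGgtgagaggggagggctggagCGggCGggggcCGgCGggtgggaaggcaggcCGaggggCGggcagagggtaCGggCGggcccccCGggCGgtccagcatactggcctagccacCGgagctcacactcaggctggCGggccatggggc
Esr2, chr12:76177210-76177509, minus strand: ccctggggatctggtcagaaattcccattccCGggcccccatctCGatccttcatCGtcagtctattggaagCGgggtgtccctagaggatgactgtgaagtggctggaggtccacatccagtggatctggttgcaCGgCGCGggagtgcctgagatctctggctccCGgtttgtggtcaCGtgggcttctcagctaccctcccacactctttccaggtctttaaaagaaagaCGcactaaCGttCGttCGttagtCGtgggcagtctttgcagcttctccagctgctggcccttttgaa
Esr1 first promoter, chr10:4611739-4612038, plus strand: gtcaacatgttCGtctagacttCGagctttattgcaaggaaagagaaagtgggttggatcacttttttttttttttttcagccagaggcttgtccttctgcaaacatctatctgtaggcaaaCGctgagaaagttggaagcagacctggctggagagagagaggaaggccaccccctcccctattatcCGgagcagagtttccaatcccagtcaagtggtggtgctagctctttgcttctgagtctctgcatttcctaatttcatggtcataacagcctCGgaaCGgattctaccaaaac
Esr1 second promoter, chr10:4709908-4710207, plus strand: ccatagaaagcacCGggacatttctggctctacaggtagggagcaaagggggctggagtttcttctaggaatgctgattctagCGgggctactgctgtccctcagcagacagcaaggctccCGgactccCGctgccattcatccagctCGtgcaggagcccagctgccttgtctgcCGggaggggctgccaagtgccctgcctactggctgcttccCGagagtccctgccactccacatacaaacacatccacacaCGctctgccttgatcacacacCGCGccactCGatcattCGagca

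The Fshr and first Esr1 sequences hold 6 CpGs each, and 56.4% of the 32851 RefSeq promoters of this length hold as many or more. The Lhcgr and Esr2 sequences hold 14 each and the second Esr1 sequence holds 12. Over all 16 libraries, 1 of 50 calls in the Fshr sequence was methylated (2%, 95% Wilson interval 0.354 to 10.5). In Esr2 it was 1 of 198 calls (0.505%, interval 0.0892 to 2.80). In Lhcgr, with as many CpGs as Esr2, 11 of 64 calls were methylated (17.2%, interval 9.88 to 28.2). The Esr1 promoters differed from each other, with 1 of 58 methylated calls in the first (1.72%, interval 0.305 to 9.14) and 120 of 127 in the second (94.5%, interval 89.1 to 97.3). The second lies inside the gene, and its methylated calls numbered 16 of 17 in IV and 20 of 20 in SOA, with 40 of 45 in SO and 44 of 45 in IFC. These intervals cover counting error only.

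Precision was limited by depth within a library and by the spread between the libraries of a group. The libraries held 5218053 to 23065411 calls, and libraries are named here by group and replicate number (IV1 is replicate 1 of IV). Depth went with group in part. IFC libraries held 5311009 to 8231898 calls and IV libraries 15644144 to 17275310, beside 5247001 to 19660161 in SO and 5218053 to 23065411 in SOA. Every IV library was deeper than every IFC library, so with all calls used, depth and group cannot be told apart between IFC and IV. Positions with a single call made up 65.5% to 91.5% of each library, so the value of a gene in a library was taken as the average percentage over all positions covered in the gene. The oocyte label was checked at the starts of maternally methylated imprinted genes. The Kcnq1ot1 start was methylated at 91.9 to 100% in all 16 libraries, the Airn start at 90.9 to 100% and the Peg3 start at 78.2 to 100%, while H19, which oocytes leave unmethylated, was at 0 to 5.31%. The Peg10 start was at 56.3 to 100% (14 libraries with at least 5 positions) and the Snrpn start at 97.96 to 100% (6 libraries). The Mest start did not match its known maternal methylation over this window, at 10 to 57.1% with a median of 37.5% (11 libraries). Library IV1 had the lowest value at Peg3 and Peg10 and the highest at Mest, while IV2 was lowest at Kcnq1ot1 and SO2 at Airn. In 5 of the 6 receptor genes with a mean below 20% IV1 had the highest gene body value of all 16 libraries, while in Esr1 it had the lowest. IV means of gene bodies, where printed, are therefore given with and without IV1, and the part of other cells in its values was not tested.

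Most of the receptor genes were poorly methylated over their bodies, while domains as such were not assigned. The mean gene body level was below 20% in 6 of the 8 genes (75%), against 4840 of 18198 measured protein-coding genes (26.6%) and 11 of 48 other genes of the same hormone pathways (22.9%). Of the 6 genes, Esr2 lay at this limit of 20%, with group means from 16.0% in IFC to 23.3% in SO. Over the 16 libraries Amhr2 stood at 4.82% ± 3.11 (SD, n = 16), Pgr at 9.77% ± 3.13, Nr3c2 at 11.0% ± 2.62, Lhcgr at 16.4% ± 3.92, Fshr at 17.0% ± 2.74 and Esr2 at 19.9% ± 3.92. Neighbours in this order differed by less than the larger of their SDs, apart from the steps from Amhr2 to Pgr and from Nr3c2 to Lhcgr. The 2 exceptions were Nr3c1 at 71.3% ± 9.30 and Esr1 at 88.1% ± 1.83, the latter above 94.6% of all measured genes. The oestrogen receptor genes Esr1 and Esr2 were thus far apart, as were those of the related corticosteroid receptors, Nr3c1 and Nr3c2.

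**Figure D1:**
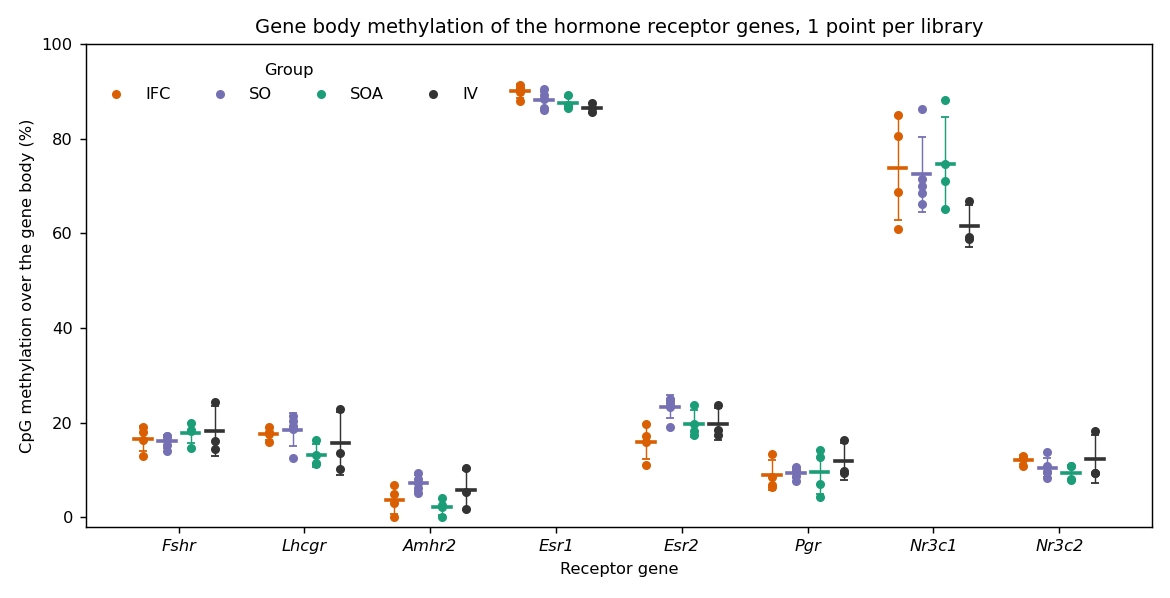
Gene body methylation (percent, vertical axis) of the 8 receptor genes in the 16 libraries, 1 point per library, coloured by group, with the group mean as a bar and the SD as the error bar. Esr1 and Nr3c1 sit above 58% in every library, the other 6 genes below 26%, and within a gene the differences between groups are small beside the gap between these high and low genes. SO and SOA in Amhr2, and IFC and IV in Esr1, do not overlap, and Nr3c1 scatters widely.

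The gonadotropin receptor genes were measured with 255 to 942 covered positions per library for Fshr (chromosome 17, 88984952-89200675, minus strand, ENSMUSG00000032937.5) and 175 to 611 for Lhcgr (chromosome 17, 88716481-88791990, minus strand, ENSMUSG00000024107.7). Fshr was at 19.1, 16.3, 13.0 and 18.0% in IFC, at 17.3, 16.4, 14.0, 17.2 and 15.3% in SO, at 18.2, 18.5, 19.9 and 14.7% in SOA, and at 24.3, 14.3 and 16.2% in IV. All groups overlapped, and without IV1 the IV mean fell from 18.3% to 15.3%. Over the whole body of the FSH receptor gene the group means ranged from 16.0% in SO to 18.3% in IV, and the 6 exact permutation p values from 0.175 to 0.914. A stretch of the gene where the groups lay further apart is described below. Lhcgr was at 17.6, 15.9, 18.0 and 19.1% in IFC, at 20.4, 21.3, 19.4, 18.7 and 12.6% in SO, at 11.5, 13.1, 16.4 and 11.3% in SOA, and at 23.0, 13.6 and 10.3% in IV. SO exceeded SOA by 5.43 points ± 1.94 (SE), with 4 of the 5 SO libraries above every SOA library (two-sided exact permutation p = 0.0476, smallest possible 0.00794). The F test of the logistic model with Benjamini-Hochberg adjustment over all genes did not call it (adjusted p = 0.599). IFC exceeded SOA by 4.58 points ± 1.34 (exact permutation p = 0.0571, adjusted p = 0.481), and the IV mean was 15.6% with IV1 and 11.9% without it.

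Amhr2 (chromosome 15, 102445367-102454633, plus strand, ENSMUSG00000023047.11), with 28 to 140 positions per library the least covered of the 8, was at 3.00, 0, 4.92 and 6.73% in IFC and at 9.46, 5.13, 7.28, 8.08 and 6.13% in SO. It was at 2.70, 2.17, 0 and 4.13% in SOA and at 10.3, 1.85 and 5.25% in IV. Every SO library lay above every SOA library, by 4.96 points ± 1.14 on average (exact permutation p = 0.00794, the smallest possible, unadjusted over 48 such tests of gene bodies). The adjusted p was 0.425, and SO and SOA libraries did not overlap in 4.33% of all genes. SO also exceeded IFC by 3.55 points (exact permutation p = 0.0476, adjusted p = 0.899).

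Among the sex steroid receptors, Esr1 (chromosome 10, 4611593-5005614, plus strand, ENSMUSG00000019768.16) gave the most precise values, from 606 to 1978 positions per library. It was at 91.4, 89.8, 90.7 and 88.0% in IFC, at 89.2, 90.4, 88.4, 86.1 and 86.5% in SO, at 89.3, 87.1, 86.4 and 87.1% in SOA, and at 85.5, 86.4 and 87.5% in IV. Every IFC library was above every IV library, by 3.50 points ± 0.930 on average. This was the smallest adjusted p of any receptor gene, 0.0515, just above the limit of 0.05, with an exact permutation p of 0.0571 (smallest possible 0.0286). In this comparison 13.1% of all genes had groups that did not overlap, and the median difference of the 3256 genes at or above 80% was 2.52 points in the same direction. The IV mean was 86.5% with IV1 and 86.9% without it. All IV libraries were deeper than all IFC libraries, and with libraries thinned to the shallowest the difference was 4.69 points.

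Esr2 (chromosome 12, 76120419-76177259, minus strand, ENSMUSG00000021055.14) was at 17.2, 19.8, 11.1 and 15.9% in IFC and at 19.2, 24.2, 24.9, 23.4 and 25.1% in SO. In SOA it was at 19.7, 23.7, 17.3 and 18.3% and in IV at 23.6, 18.5 and 17.3%. IFC lay below SO by 7.35 points ± 2.12, and the groups met only through SO1, which lay just under the highest IFC library (exact permutation p = 0.0238, adjusted p = 0.296). Pgr (chromosome 9, 8899833-8968611, plus strand, ENSMUSG00000031870.16), the progesterone receptor gene that the luteinising hormone surge is known to induce in granulosa cells, had a group mean of 11.8% ± 3.89 in IV, beside 9.58% ± 4.61 in SOA, 9.41% ± 1.19 in SO and 8.85% ± 3.17 in IFC. Without IV1 the IV mean was 9.59%. Its libraries ranged from 4.35 to 16.3%, the highest being IV1, and its 6 exact permutation p values ranged from 0.250 to 0.944.

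Of the corticosteroid receptor genes, Nr3c2 (chromosome 8, 76899442-77245012, plus strand, ENSMUSG00000031618.13) was at 12.4, 12.6, 10.7 and 13.0% in IFC and at 8.41, 9.68, 10.8, 13.7 and 9.66% in SO. It was at 10.8, 10.8, 8.12 and 7.93% in SOA and at 18.3, 9.34 and 9.36% in IV. IFC exceeded SOA by 2.78 points ± 0.945 (exact permutation p = 0.0857, adjusted p = 0.537), and without IV1 the IV mean fell from 12.3% to 9.35%.

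Nr3c1 (chromosome 18, 39410545-39519421, minus strand, ENSMUSG00000024431.15) showed the widest spread and the largest differences between groups. It was at 68.7, 85.0, 61.0 and 80.6% in IFC, at 86.2, 68.5, 70.1, 71.4 and 66.1% in SO, at 74.6, 65.2, 88.2 and 70.99% in SOA, and at 59.3, 58.8 and 66.8% in IV. IV lay below SOA by 13.1 points ± 5.51, below IFC by 12.2 points ± 6.07 and below SO by 10.8 points ± 4.37, with exact permutation p values of 0.0857, 0.114 and 0.0714 and adjusted p values of 0.600, 0.471 and 0.419. The IV mean was 61.6% with IV1 and 62.8% without it. The gene holds a CpG-dense stretch of 4114 bp, 27.7 to 31.8 kb from its first start, with 300 CpGs or 31.2% of all CpGs of the body. In this stretch 152 of 1715 calls of all libraries were methylated (8.86%). The share of the covered positions that fell into it differed widely, from 5.03% in SO1 to 35.7% in IV2, and the 3 IV libraries had 34.2, 35.7 and 31.7%. With the stretch left out, a step chosen after seeing the data, the body stood at 87.5 to 98.2% in the 16 libraries. The group means were then 89.5% ± 2.06 in IV (90.4% without IV1) and 93.2% ± 3.73 in SOA, with 91.1% ± 2.32 in SO and 91.3% ± 2.27 in IFC. The difference between SOA and IV was 3.74 points (exact permutation p = 0.143), in place of 13.1.

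**Figure D2:**
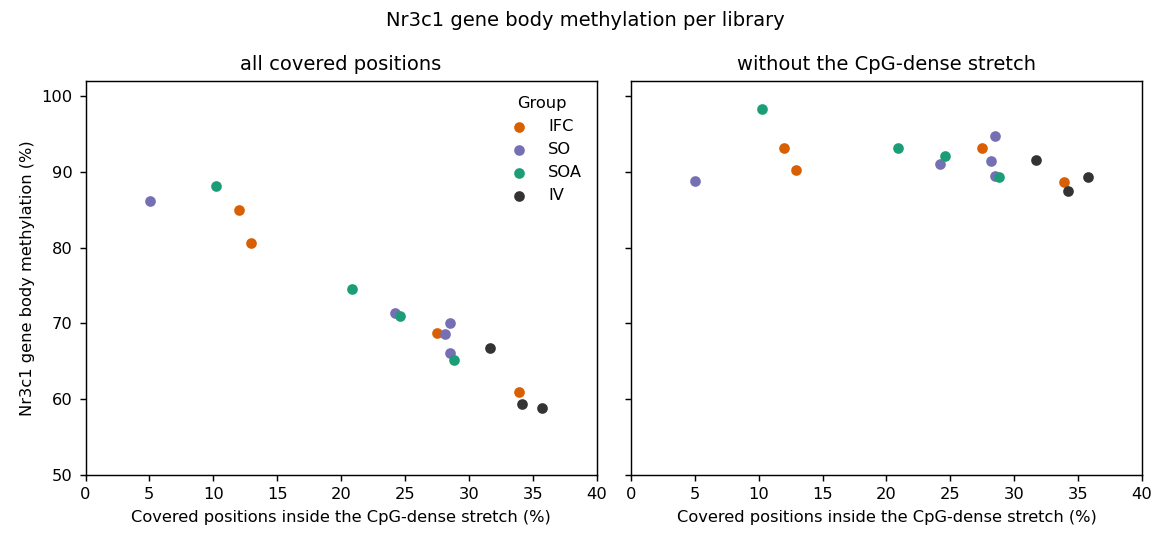
Nr3c1 gene body methylation (percent, vertical axis) of each library against the share of its covered positions that lie in the CpG-dense stretch (percent, horizontal axis), over all positions (left) and without the stretch (right), coloured by group. On the left the libraries run from 88.2% at a share of 10.2% down to 58.8% at 35.7%, and on the right all lie between 87.5 and 98.2%.

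Over gene bodies, none of the 8 receptor genes was called in any of the 6 comparisons by the F test of the logistic model with Benjamini-Hochberg adjustment at 0.05. The share of all 18198 genes called was 0.319% when IFC was set against SO, 1.7% between SO and SOA, 0.0% between SOA and IV, 2.75% for IFC against SOA, 3.59% for IFC against IV and 2.26% for SO against IV, so that fewer than 1 call among 8 genes would match the background in each. An unadjusted p under 0.05 was found in 7 of the 48 tests: 2 for IFC vs SO (Esr1 and Esr2), 2 for SO vs SOA (Amhr2 and Esr2), 0 for SOA vs IV, and 1 each for IFC vs SOA (Esr1), IFC vs IV (Esr1) and SO vs IV (Esr2). Among all genes the share under 0.05 ran from 7.32% for IFC vs SO to 16.0% for IFC vs IV. limma on the percentages called 0 receptor genes in each comparison, beside 0.313, 1.23, 0.0, 3.03, 2.04 and 0.61% of all genes in the order above. The likelihood-ratio test without a spread between libraries called 2, 4, 4, 3, 2 and 3 of the 8 receptor genes, and 21.1, 25.8, 26.9, 30.6, 36.6 and 33.6% of all genes. Groups did not overlap in 2 of the 48 body comparisons, Amhr2 between SO and SOA and Esr1 between IFC and IV. Among all genes the share without overlap was 3.23, 4.33, 6.29, 7.77, 13.1 and 7.53% in the order above. The median difference of the 8 genes lay between -1.37 points for SOA vs IV and 1.53 points for SO vs IV, beside 0.862 and 0.692 points over all genes. Over the 4840 genes below 20%, the class of 6 of the 8 receptor genes, the medians were -2.36 and -1.72 points.

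**Figure D3:**
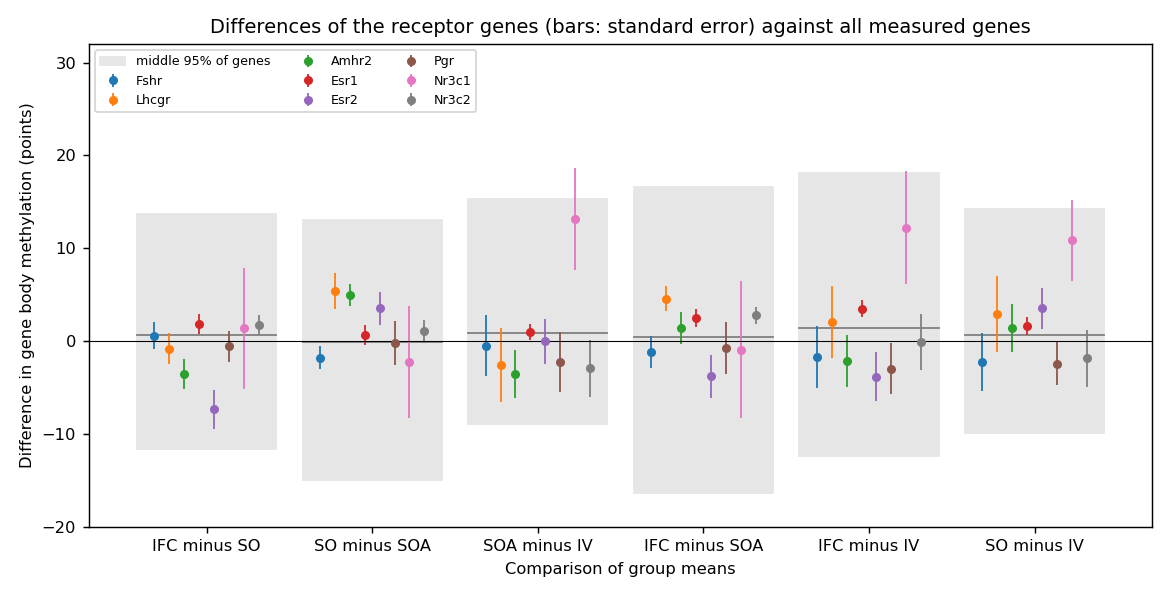
Difference between group means of gene body methylation (percentage points, vertical axis) for the 8 receptor genes in the 6 comparisons, with the standard error as the bar. The grey box spans the middle 95% of the 18198 measured genes with their median as a grey line, and every receptor gene lies inside it in all 6 comparisons, the largest difference being 13.1 points for Nr3c1 in SOA minus IV.

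Starts were less well covered than bodies, and 6 of the 8 windows had at least 5 positions in every library. Pgr, Nr3c2, Esr2 and Amhr2 had nearly unmethylated starts, with means over 16 libraries of 1.97, 2.23, 3.66 and 4.76%, and windows with 137, 180, 94 and 51 CpGs beside a median of 86 over all genes. The gonadotropin receptors had higher means over these windows, at 11.6% for Fshr with 64 CpGs and 24.1% for Lhcgr with 73, the latter above 79.6% of all measured windows. The Fshr window ran from 0% in IFC3 to 27.3% in SO2. Within 0.5 kb of the Fshr start 7 of 193 calls of all libraries were methylated (3.63%), beside 6 of 152 (3.95%) at the first Amhr2 start. Lhcgr was at 33.3, 30.8, 38.5 and 14.0% in IFC, at 16.7, 21.2, 31.9, 29.0 and 17.5% in SO, at 7.14, 32.1, 41.2 and 15.3% in SOA, and at 15.9, 20.8 and 20.2% in IV, so the groups overlapped. The region around the Lhcgr start was uneven: over all libraries 17 of 147 calls were methylated (11.6%) from 0.086 kb before to 0.173 kb after the start, and 92 of 186 (49.5%) at 1.47 to 2.99 kb after it.

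None of the 6 informative windows was called in any comparison by the F test, beside 0.0774, 0.123, 0.0, 0.232, 0.464 and 0.116% of 15502 windows in the same order of comparisons. In 4 of the 36 tests the unadjusted p was under 0.05, each time for Esr2, and these 4 tests share libraries. Among all windows the share under 0.05 ran from 6.31% for IFC vs SO to 9.12% for SO vs IV. limma called none, and called 0.0194, 0.00645, 0.0, 0.2, 0.0387 and 0.0129% of all windows. The likelihood-ratio test without a spread between libraries called 1, 0, 1, 1, 0 and 1 of the 6 windows, and 6.79, 8.01, 7.55, 8.7, 11.3 and 11.7% of all windows. Esr2 was at 0, 13.3, 3.13 and 12.6% in IFC, at 0, 3.33, 0, 1.06 and 3.33% in SO, at 0, 3.23, 0 and 1.37% in SOA and at 8.19, 1.56 and 7.41% in IV. The smallest adjusted p of these was 0.484, for SO vs IV. In Nr3c2 the IV libraries, at 4.07, 3.85 and 3.70%, lay above all SOA libraries (0, 0, 0 and 3.15%) by 3.09 points ± 0.794 (exact permutation p = 0.0571, adjusted p = 0.796) and met the IFC libraries (0, 3.70, 0 and 2.04%) at IV3. This was the 1 window comparison of 36 without overlap between groups, while the share of all windows without overlap was 1.95, 2.01, 6.42, 3.86, 8.38 and 4.12% in the same order. In Pgr, SO exceeded SOA by 1.92 points (exact permutation p = 0.0476, adjusted p = 0.819). The windows of Esr1 and Nr3c1 fell to 4 and 3 positions in the least covered library and entered no F test. Esr1 averaged 33.7% in IV and 38.5% in SOA, beside 17.9% in SO and 20.7% in IFC, with SO below IV by 15.8 points ± 7.62 (exact permutation p = 0.0357, smallest possible 0.0179, groups overlapping) and below SOA by 20.5 points ± 12.1 (exact permutation p = 0.111). Nr3c1 had group means from 93.9 to 97.53% and exact permutation p values from 0.603 to 1. This first start is not the one marked principal in the annotation, which lies 28.7 kb further on, in the CpG-dense stretch. The window of 2 kb on either side of the principal start had group means from 2.62% in SOA to 4.81% in IV.

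Where a gene had several annotated starts, they could differ from each other more than any 2 groups did. Within 0.5 kb of the first Nr3c1 start 140 of 150 calls were methylated (93.3%, Wilson interval 88.2 to 96.3), and within 0.5 kb of the starts 28.1 and 29.5 kb further on, in the CpG-dense stretch, 3 of 343 (0.875%, interval 0.298 to 2.54) and 24 of 767 (3.13%, interval 2.11 to 4.61). The start at 32.2 kb was again methylated, in 133 of 141 calls (94.3%). In Esr1 the first start was the least methylated. The first start was methylated in 2 of 112 calls (1.79%), the starts 98.6 and 101.1 kb inside the gene in 190 of 201 (94.5%) and 438 of 477 (91.8%), the last with 72 CpGs within 0.5 kb. The start at 311.4 kb was methylated in 32 of 32 calls, but the one at 324.9 kb in 4 of 20 (20%, interval 8.07 to 41.6). The 4 starts of Nr3c2, including one 228.6 kb inside the gene, ran from 1.73 to 7.55%, and both starts of Amhr2 stood below 4%. These are calls pooled over all libraries.

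**Figure D4:**
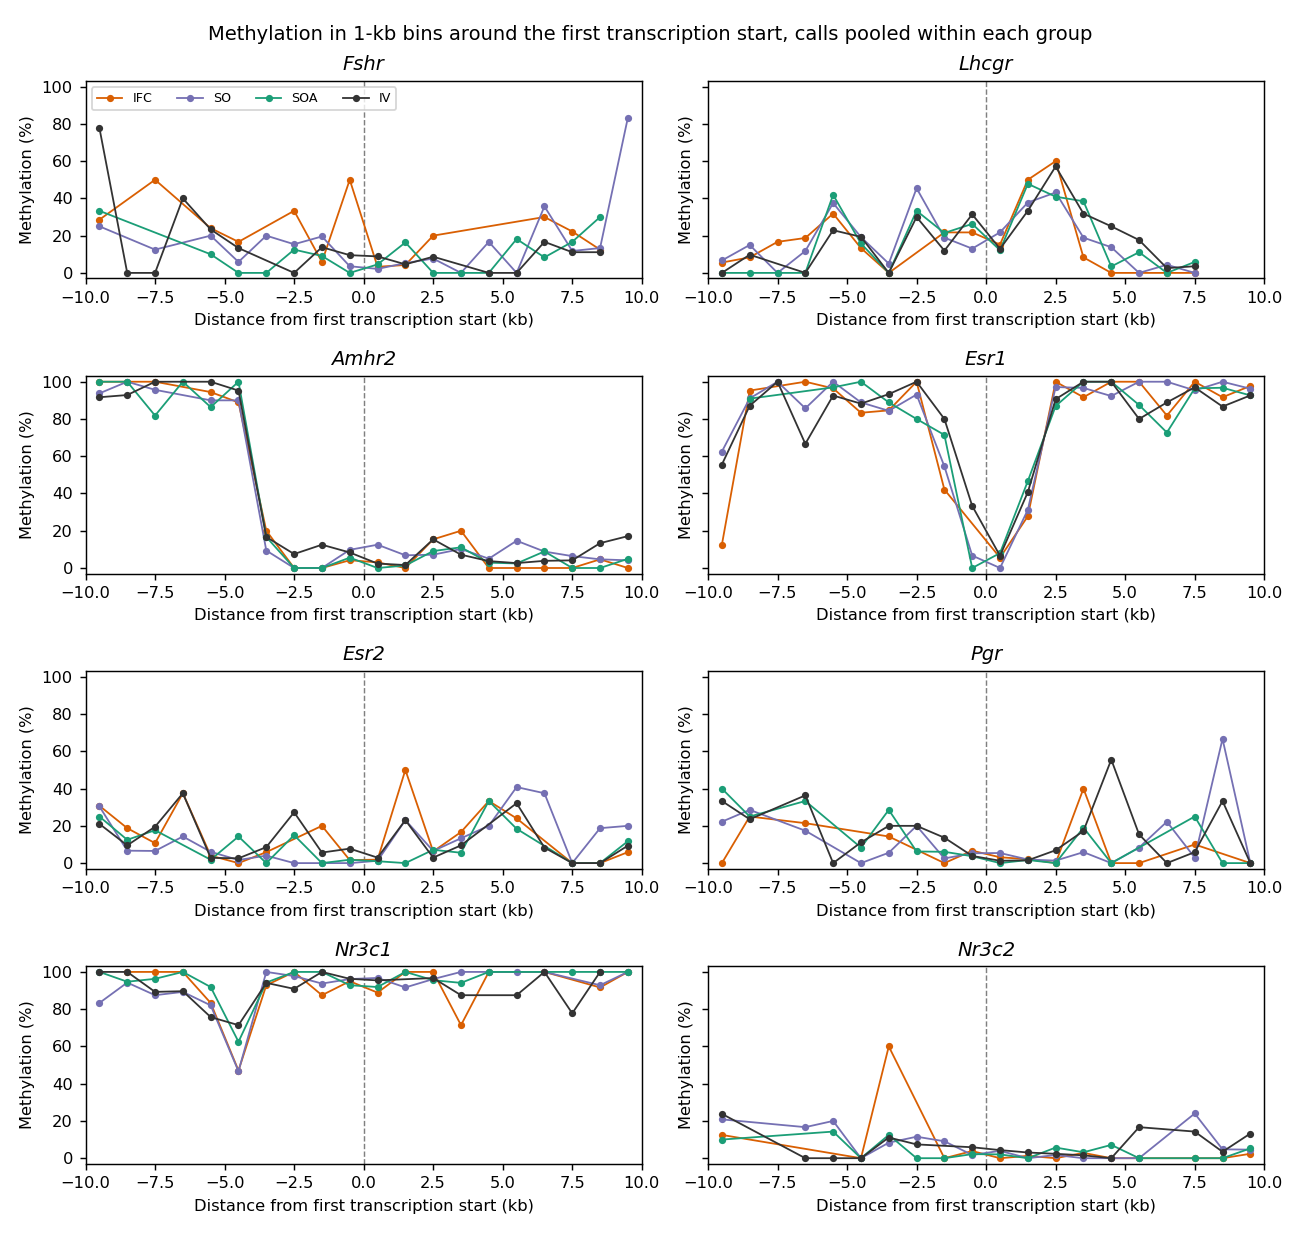
Methylation in 1-kb bins (percent, vertical axis) from 10 kb before to 10 kb after the first start of each receptor gene (kb, horizontal axis), with the calls of each group pooled and bins under 5 calls left out. Esr1 shows a dip at its start, Amhr2 a fall from near 100% to under 25% about 4 kb before its start, and Nr3c1 no dip at its first start. Bins with few calls part the groups, as in Pgr 4.5 kb after the start, where IV is at 55.6% from 9 calls and the other groups at 0.

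The profile along each gene was followed in tiles of 100 consecutive CpGs, of which 112 overlapped the 8 bodies. All 6 tiles of Pgr, 10 of 13 of Fshr and 27 of 31 of Nr3c2 were below 20%, and 24 of 32 tiles of Esr1 were above 80%. Fshr had a single island of methylation: the tile 45.2 to 53.8 kb from the start averaged 52.0%, with 90 of 113 calls methylated (79.6%) at 46.5 to 46.8 kb and 1 of 17 (5.88%) at 50.8 to 53.8 kb. This tile was at 43.4% ± 6.88 in SO, 47.0% ± 8.03 in IFC, 61.7% ± 7.99 in SOA and 60.2% ± 7.32 in IV. The likelihood-ratio test did not call it in any comparison (smallest adjusted p = 0.0727, for SO vs SOA). In Nr3c2 2 adjoining tiles at 236.6 to 245.1 kb averaged 53.7 and 59.3% over the 11 and 12 libraries with at least 5 positions there. Cut into 5 segments of 20 CpGs, the former had 131 calls in its first segment and at most 2 in each of the others, and the latter had 2, 7 and 17 calls in its first 3 segments, so both values rest on part of the tile. Esr1 had its mirror image, a gap in a methylated body: from 20.5 to 21.6 kb 16 of 211 calls were methylated (7.58%) and from 21.7 to 22.7 kb 14 of 123 (11.4%), between stretches at 77.8% and a tile at 76.3%. Shallower gaps held 49.4% methylated calls at 257.3 to 259.6 kb, 33.5% at 321.8 to 323.8 kb and 37.0% at 323.9 to 324.4 kb, the latter beside the start at 324.9 kb.

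The last tile of 3 of the poorly methylated genes, which crosses the gene end, was highly methylated. It stood at 88.2% for Lhcgr, from 71.5 kb on, at 92.4% for Esr2, from 53.8 kb on, and at 95.4% for Nr3c2, from 343.1 kb on. In the part of the tile inside the gene 166 of 226 calls were methylated for Lhcgr (73.5%), 576 of 604 for Esr2 (95.4%) and 263 of 273 for Nr3c2 (96.3%). In Nr3c2 the level rose from 44.7% (97 of 217 calls) at 339.2 to 341.9 kb to 96.7% (232 of 240) at 341.9 to 343.1 kb, still inside the gene. The 50 kb after the gene averaged 79.2% ± 5.56 for Lhcgr, 92.8% ± 2.13 for Esr2 and 94.8% ± 1.47 for Nr3c2, above the body in all 16 libraries. In each case the next gene was transcribed towards the receptor gene and was methylated over its own body: Gtf2a1l at 85.3%, 1.33 kb away, Syne2 at 90.3%, 9.49 kb away, and Arhgap10 at 86.2%, 5.35 kb away. These neighbours covered 93.0, 81.0 and 89.3% of the 50 kb. Esr1, Nr3c1 and Pgr also had a methylated gene transcribed towards them within 50 kb: Syne1 at 88.7%, Arhgap26 at 87.5% and Arhgap42 at 83.1%. The last tile of Pgr stood at 11.4%, with Arhgap42 25.7 kb away. A link between neighbours and gene ends was not tested. Fshr, with no protein-coding gene within 50 kb on either side, was flanked by 13.6% ± 4.70 before and 8.58% ± 2.64 after the gene. The small Amhr2 gene lay in a dip, with 41.9% ± 5.61 before and 61.7% ± 6.30 after it.

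**Figure D5:**
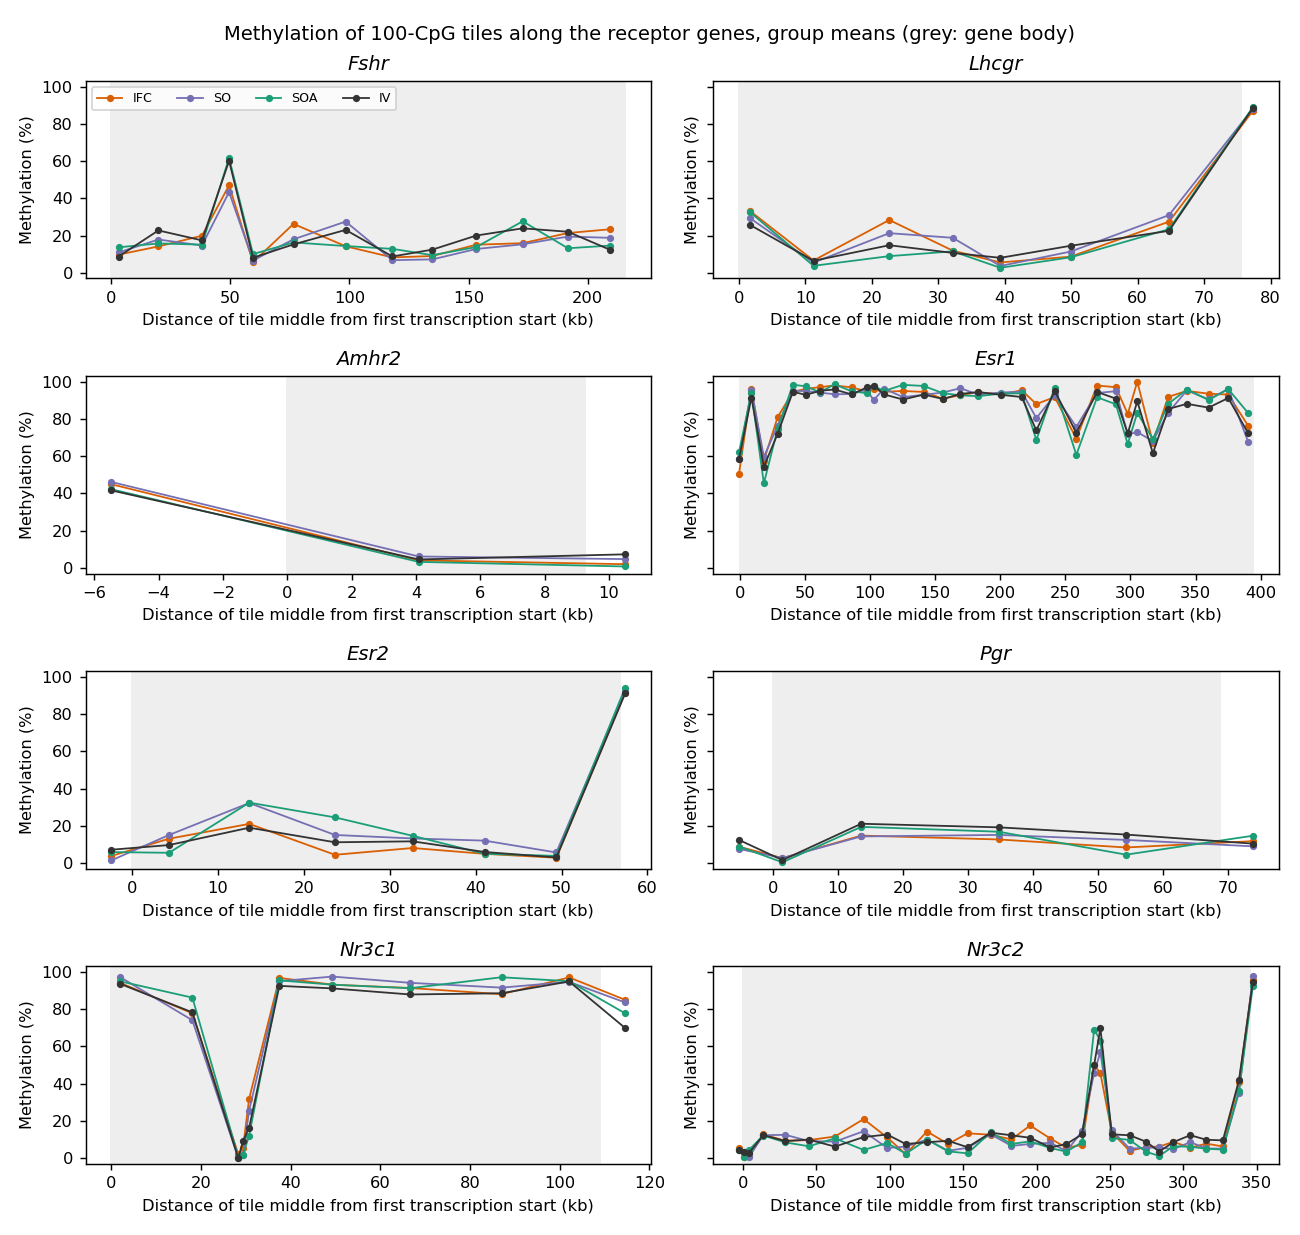
Mean methylation of each group (percent, vertical axis) in tiles of 100 CpGs along the 8 receptor genes, placed by the distance of the tile middle from the first start (kb, horizontal axis), with the gene body in grey. Lhcgr, Esr2 and Nr3c2 rise to group means between 87.0 and 97.6% at the gene end, Nr3c1 falls to near 0 around 28 kb, Fshr has a peak near 50 kb with group means from 43.4% in SO to 61.7% in SOA, and the groups part in single tiles, as in Esr2 between 4.46% in IFC and 24.5% in SOA.

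By a likelihood-ratio test, which takes no spread between libraries into account, with Benjamini-Hochberg adjustment over all tiles, 2, 5, 2, 7, 5 and 8 of the 107 or 108 tested tiles of the receptor genes were called in the same order of comparisons (IFC against SO first). These shares of 1.87, 4.67, 1.85, 6.48, 4.63 and 7.41% were below the shares of all tiles called, 4.46, 9.0, 6.46, 11.4, 12.1 and 11.7%. With a difference of at least 20 points, 1 tile was called for IFC vs SOA, where 3.83% of all tiles were, and 0 in the other comparisons, where 1.12, 1.87, 0.35, 3.51 and 1.6% were. The F test with a moderated dispersion and limma called 0 tiles of the receptor genes. Of all tiles the F test called 0.388, 1.68, 0.0, 3.16, 1.88 and 1.06% and limma 0.0723, 0.333, 0.0, 1.26, 1.07 and 0.231%. The called tile lies in Esr2 (chromosome 12, 76149023-76158268), 18.99 to 28.2 kb from its start. It was at 7.41, 5.88, 0 and 4.55% in IFC and at 11.4, 54.5, 18.2 and 14.1% in SOA, so that all SOA libraries lay above all IFC libraries by 20.1 points on average (adjusted p = 0.0122 by the likelihood-ratio test). SO was at 8.82, 8.11, 16.1, 14.9 and 27.5% and IV at 13.2, 5.88 and 14.5%. Without SOA2 the difference was 10.1 points and without IFC3 18.6 points, and in both cases the tile was no longer called with at least 20 points. The next largest difference among the called tiles of IFC against SOA was of the opposite sign, in a tile of Lhcgr 17.6 to 27.6 kb from its start, with 23.1, 13.8, 32.1 and 44.6% in IFC against 0, 19.2, 5.00 and 11.8% in SOA, a mean difference of 19.4 points (adjusted p = 0.000134 by the likelihood-ratio test), over 20 points and called without IFC1 (21.2), IFC2 (24.3), SOA2 (22.8) or SOA4 (20.3), and 14.0 points without IFC4.

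The other genes of these hormone pathways were taken as lists of 15 further receptors, 17 ligands and steroid enzymes and 19 cofactors and signalling genes, of which 48 of 51 were measured in every library. In IFC vs SO and SOA vs IV none was called by the F test. Of the 48, 1 and 5 had an unadjusted p under 0.05, beside 7.32 and 8.48% of all genes. There limma on the percentages called 0 in both, and the likelihood-ratio test without a spread between libraries called 5 and 11 of the 48, beside 21.1 and 26.9% of all genes. In the other comparisons 1 or 2 genes in each were called, in IFC vs IV 3, all with the higher level in the group named first. The shares of all genes called were 1.7, 2.75, 3.59 and 2.26% for SO vs SOA, IFC vs SOA, IFC vs IV and SO vs IV, and limma called 0, 2, 1 and 0 of the listed genes there. The likelihood-ratio test called 13, 17, 25 and 21 of the 48, beside 25.8, 30.6, 36.6 and 33.6% of all genes. Among receptors, Acvr1, an activin-family type I receptor gene, was higher in IFC than in SOA by 7.40 points (adjusted p = 0.0447) and than in IV by 9.84 points (adjusted p = 0.0116), with limma's adjusted p at 0.143 and 0.0779. Esrrg, an oestrogen-related orphan receptor gene, was higher in SO than in IV by 4.96 points (adjusted p = 0.0344, by limma 0.516). Nr5a2, an orphan nuclear receptor gene needed for ovulation, was higher in IFC than in IV by 6.62 points (adjusted p = 0.0193, by limma 0.218).

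Srd5a1, which encodes a steroid 5-alpha reductase that converts testosterone and progesterone to their reduced forms, was the 1 listed gene called with at least 10 points. It lies on chromosome 13, 69573449-69611442, minus strand (ENSMUSG00000021594.11), and had 120 to 408 positions per library. It was at 49.8, 44.7, 36.7 and 44.1% in IFC, at 42.2, 37.5, 40.2, 43.1 and 48.6% in SO, at 32.5, 30.7, 32.5 and 26.1% in SOA, and at 35.2, 26.5 and 23.9% in IV. Every library of prepubertal origin lay above every library of adult origin. The gene was named for its calls, so this is no separate result. Of all genes 4.33% had no overlap between SO and SOA, 7.77% between IFC and SOA, 13.1% between IFC and IV and 7.53% between SO and IV. The share for all prepubertal against all adult libraries was not computed. The differences were 11.9 points for SO minus SOA (adjusted p = 0.0194), 13.4 for IFC minus SOA (adjusted p = 0.0182), 15.3 for IFC minus IV (adjusted p = 0.00935) and 13.8 for SO minus IV (adjusted p = 0.00816) by the F test of the logistic model. limma on the percentages gave adjusted p values of 0.0918, 0.0373, 0.0356 and 0.0994 in this order, so the calls of SO against SOA and SO against IV were lost. These comparisons share libraries.

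For the 3 receptor genes with the largest differences between groups, the genes whose body values followed theirs most closely over the 16 libraries were taken by Pearson correlation. They were Hsf1 (r = 0.857) and Dtnbp1 (r = 0.841) for Nr3c1, Chrna5 (r = 0.793) and Foxa3 (r = 0.772) for Esr2, and Cntn5 (r = 0.846) for Lhcgr. These are among the highest of 18198 genes, and the libraries share their depth and groups, so the values describe likeness only.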

How the data were processed

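Per the labels and the study's methods, the authors trimmed the PBAT reads with Trim Galore 0.4.4 and cutadapt 1.9.1, mapped them to GRCm38 with Bismark 0.19.0, removed duplicates and deposited, for each covered CpG position of each strand, the percent methylated beside the raw counts of calls of either state, with no normalization. Libraries were sequenced on 2 instrument types, and which library ran on which is not given in the sources used here. The deposited counts were used. The value of a region in a library was the mean percent over the positions it covered there, with 5 or more such positions required in every library.

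Gene bodies and start windows were tested in Python 3.11.15 by a logistic model of the counts over all 16 libraries, with an F test whose dispersion was moderated across genes with limma 3.58.1 in R 4.3.3, and Benjamini-Hochberg adjustment over all measured genes at 0.05. Tiles were tested by a likelihood-ratio test of the 2 groups. Single values were compared by two-sided exact permutation tests, unadjusted, 48 for gene bodies and 48 for start windows. The F test was checked on simulated gene bodies with a spread between libraries, and the likelihood-ratio test on simulated tiles without one. The latter check cannot show how that test behaves where libraries of a group differ. The study treats the pools as biological replicates, but whether pools of a group shared females is not given in the sources used here. The p-values of the F test, limma and the permutation tests therefore measure the spread between these pools. Those of the likelihood-ratio tests, including the ones printed for tiles, measure the counting of calls only. The named genes were the 8 receptor genes, the listed pathway genes called with at least 10 points, and the 2 genes most correlated with each of the 3 receptor genes of largest difference; Acvr1, Esrrg and Nr5a2 were named after their values were seen. One gene that the last rule names is not reported here. The members and lists were chosen with earlier results of these data known. Alternatives changed the test, coverage limits, window, tile frame, depth and libraries used.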

Additional observations from a re-analysis of the deposited data

Results flagged for a closer look

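In 42 groups of 4 or 5 libraries, taken over the gene bodies and measured start windows of the receptor genes, 6 held a library far from the others by Dixon's test at its 95% critical value. For normally distributed values chance flags about 1 in 20 groups, or 2.1 here. Where all other libraries of a group stand at 0%, any value above 0% is flagged. The rate does not hold for such windows, so the count of 6 shows no excess. Over gene bodies SO1 stood apart from the other SO libraries in both cases, low for Esr2 at 19.2% and high for Nr3c1 at 86.2%. SO1 also had the lowest share of Nr3c1 positions in the CpG-dense stretch, 5.03%, and without the stretch its Nr3c1 value was 88.7%, beside 89.5 to 94.7% in the other SO libraries. In the start windows IFC4 at Amhr2 (5.56%), SOA4 at Pgr (1.95%) and SOA4 at Nr3c2 (3.15%) were each the single library above 0% in their group. SOA3 at Amhr2 stood at 22.2%, from a window covered at 9 positions in the least covered library.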

How the results depend on the processing

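Counts of receptor genes called over bodies were 0 in all 6 comparisons and stayed 0 under limma, a fit of the 2 groups alone, at least 20 positions, reference CpGs and either depth class where it could be fitted. With positions of at least 3 calls no receptor gene, and with at least 20 positions no start window, was measured in every library, so these gave no test. The former moved 11 of the 21 body means it gave by over 1 SD and 5 by over 1.5 times, such as Fshr in SO from 16.0 to 7.37% and Pgr in IFC from 8.85 to 14.6%, and Nr3c1 in IV rose from 61.6 to 84.03%. Of these 21 means 13 rest on under 5 positions in some library. The likelihood-ratio test without a dispersion called 2, 4, 4, 3, 2 and 3 bodies in the order of comparisons used above (IFC against SO first, SO against IV last), beside 21.1 to 36.6% of all genes, and 1, 0, 1, 1, 0 and 1 of 6 start windows, beside 6.79 to 11.7% of all windows. For IFC vs IV the count became 1 with the replicate block, with libraries thinned to the shallowest, and without IFC4, SO4 or IV3 (range 0 to 1 over all 16 omissions). That gene was Esr1, whose difference stayed between 2.80 and 4.69 points (adjusted p 5.12e-08 to 0.441 over 24 alternatives, 6 of them past 0.05; 0.0196 with the block). Its call therefore rests on the setting. The Amhr2 difference of SO minus SOA stayed between 3.03 and 5.87 points (adjusted p 0.00325 to 0.873 over 26 alternatives). Only 1 of them was past 0.05, the likelihood-ratio test without a dispersion. The replicate block changed no other call. The libraries share only a number: deviations from the group means correlated between -0.0843 and 0.0675 in 21 pairs of equal replicate number, so the block is no true pairing. Tile counts without a minimum difference were 2, 5, 2, 7, 5 and 8. For IFC vs SOA the count of 1 tile became 0 under the moderated F test, limma, a limit of 30 points, at least 20 positions and a frame shifted by 50 CpGs, 2 after thinning, and 1 to 3 without single libraries. The shifted frame called 1 tile, of Nr3c1, for SOA vs IV, and IFC vs IV ran from 0 to 1 without single libraries. Of 841 recomputed group means of bodies, 823 moved by less than 1 SD, and 11 of the other 18 came from positions with at least 3 calls. Low coverage limits the start windows most: among the 6 measured in every library, a single library's Wilson interval spanned up to 24.2 points on either side, at Amhr2.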
